A study of Arabidopsis thaliana with 6 samples.

Results

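Brassinosteroids are the steroid hormones of plants, and 10 genes of their synthesis, inactivation and signalling were followed in the inflorescence apex of Arabidopsis thaliana after induction of AP2m3, a form of the transcription factor APETALA2 (AP2). The genes were chosen by locus as named steps of the pathway, with earlier results of these data known. All 10 were among the 28775 loci of the count table. They are DET2 (AT2G38050), DWF4 (AT3G50660), CPD (AT5G05690), ROT3 (AT4G36380) and BR6OX2 (AT3G30180) for synthesis, BAS1 (AT2G26710) for inactivation, and BRI1 (AT4G39400), BIN2 (AT4G18710), BZR1 (AT1G75080) and BES1 (AT1G19350) for signalling. Each group had 3 RNA-seq libraries: mock (CT1, CT2 and CT3) and dexamethasone (Dx4, Dx5 and Dx6), the glucocorticoid that switches AP2m3 on. Apices of plants at 2 weeks after bolting were collected 6 to 8 h after either treatment, without their visible flower primordia. For the promoter behind AP2m3, the genetic background and the number of plants per sample, the sources used here give nothing. No library with dexamethasone but without AP2m3 was analysed here, so effects of the steroid itself and of AP2m3 cannot be told apart.

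Brassinosteroids are made from membrane sterols by a reductase and a series of cytochrome P450 enzymes. The hormone is bound at the cell surface by the receptor kinase BRI1 with co-receptors such as BAK1, which leads to loss of the activity of BIN2, a kinase that otherwise holds the transcription factors BZR1 and BES1 inactive. Active BZR1 and BES1 turn on growth genes and repress synthesis genes, among them DWF4 and CPD, so the pathway limits its own hormone supply. In shoot apices the hormone is known for cell expansion in organs and for being kept low in the boundaries between organs, where BAS1 acts.

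The libraries held 1633571 to 2196781 counts, of which 1031 to 1459 fell on the 10 genes. The induction was seen in AP2 (AT4G36920), at 55.7 to 78.1 CPM in mock and 1009 to 1187 CPM with dexamethasone (log2 fold change 4.08 ± 0.15, SE, edgeR adjusted p = 2.82e-13). CPM are counts relative to library size, scaled between libraries by the trimmed mean of M values (TMM). Reads of the introduced and the resident AP2 were not told apart. Of 5 markers of the inflorescence meristem, STM had 106 to 165 counts per library and WUS 7 to 11, while CLV3, which marks stem cells, was listed at 0 in all 6 libraries. These 5 genes summed to 196 to 227 CPM in mock and 258 to 276 CPM with dexamethasone. Of the 3 that could be tested, 1 was called higher. Sums over marker lists of other tissue and of time of day also differed between the groups. The sum of 10 flower genes was 1350 to 1510 CPM in mock and 1120 to 1160 CPM with dexamethasone. Of these genes 4 were called lower and none higher. They did not all move alike. SEP4 had 67, 96 and 96 counts in mock and 29, 20 and 34 with dexamethasone, while AP3 had 230, 363 and 326 against 360, 346 and 408. The sum of 10 photosynthesis genes of green tissue was 8550 to 9150 and 4830 to 5120 CPM (6 of 10 called lower, none higher). Among all tested genes 5.86% were called higher and 8.02% lower. None of these 20 flower and green genes was listed at 0 in all libraries. The sum of 8 dawn-phased clock genes was 165, 121 and 73.5 CPM in CT1, CT2 and CT3 and 41.4 to 61.9 CPM with dexamethasone, with 1 of the 3 that could be tested called lower. The part of meristem, flower and green tissue in the results below was not tested. In bulk RNA fewer cells of a type and less RNA per cell cannot be told apart. The mock libraries also differed more from each other than the dexamethasone libraries did (chi-square over the number of genes, 2.19 to 5.41 for mock pairs against 1.27 to 1.35).

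The sequences just before the annotated starts of DWF4 and CPD are shown because these genes moved in opposite directions. That of BZR1 is shown because, of the 10 windows of 250 bases, only this held CGTGTG or CGTGCG, an element that BZR1 binds. Each line gives 250 bases before the start of the gene in the RefSeq annotation of TAIR10.1, on the strand of the gene, at chr3:18817406-18817655 (minus strand), chr5:1706949-1707198 (minus strand) and chr1:28185254-28185503 (plus strand). The build behind the counts is not stated. Capitals mark matches, on either strand, to CGTGTG or CGTGCG (the BZR1 element), CACGTG (the G-box), CATGTG (an E-box bound by BES1) and AACAAA (the core of an element bound by AP2).

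DWF4: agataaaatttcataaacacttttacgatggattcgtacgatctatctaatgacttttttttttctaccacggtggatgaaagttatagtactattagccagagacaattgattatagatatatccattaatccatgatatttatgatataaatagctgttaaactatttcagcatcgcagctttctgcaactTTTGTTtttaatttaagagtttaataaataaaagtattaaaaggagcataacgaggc

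CPD: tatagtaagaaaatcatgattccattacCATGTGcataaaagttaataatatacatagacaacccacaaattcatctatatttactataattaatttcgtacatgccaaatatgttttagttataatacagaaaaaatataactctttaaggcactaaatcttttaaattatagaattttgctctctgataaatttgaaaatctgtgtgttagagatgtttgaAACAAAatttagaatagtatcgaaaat

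BZR1: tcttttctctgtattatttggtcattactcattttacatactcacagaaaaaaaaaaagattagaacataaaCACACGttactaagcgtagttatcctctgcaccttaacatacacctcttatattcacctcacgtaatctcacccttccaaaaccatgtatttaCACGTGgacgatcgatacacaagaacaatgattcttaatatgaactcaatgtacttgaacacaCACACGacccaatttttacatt

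The DWF4 window held 1 AACAAA match, as its reverse complement TTTGTT, 57 bases before the start, and the CPD window held 1 AACAAA match at 27 bases and 1 CATGTG match at 222 bases. The BZR1 window held CGTGTG at 178 and 22 bases and CACGTG at 85 bases before the start, and these matches do not overlap each other. Over the 10 genes, AACAAA was present in 6 windows, CATGTG in 3, CGTGTG and CACGTG in 1 each and CGTGCG in none. Of the windows of 27443 protein-coding genes, 55.0% held AACAAA, 11.1% CATGTG, 6.49% CACGTG, 5.37% CGTGTG and 1.57% CGTGCG. A match is only a description of these letters, and sequence farther upstream or inside the genes was not searched.

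The synthesis genes held all 3 calls among the 10 genes, and they went both ways. DWF4 rose by 2.05-fold, while CPD and DET2 fell to 0.470 and 0.502 of their mock levels. ROT3 and BR6OX2 did not pass the test, and neither did BAS1, BRI1, BIN2, BZR1 or BES1. A call here is an adjusted p under 0.05 by the quasi-likelihood test of edgeR, with Benjamini-Hochberg adjustment over 15857 genes. Of all these genes 5.86% were called higher and 8.02% lower, against 1 and 2 of the 10 genes. For 5 of the 10 genes the groups did not overlap, against 31% of all tested genes. The median log2 fold change of the 10 was -0.00203, against 0.00346 over all genes, and the median of its size was 0.40, against 0.23 over all genes.

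**Figure D1:**
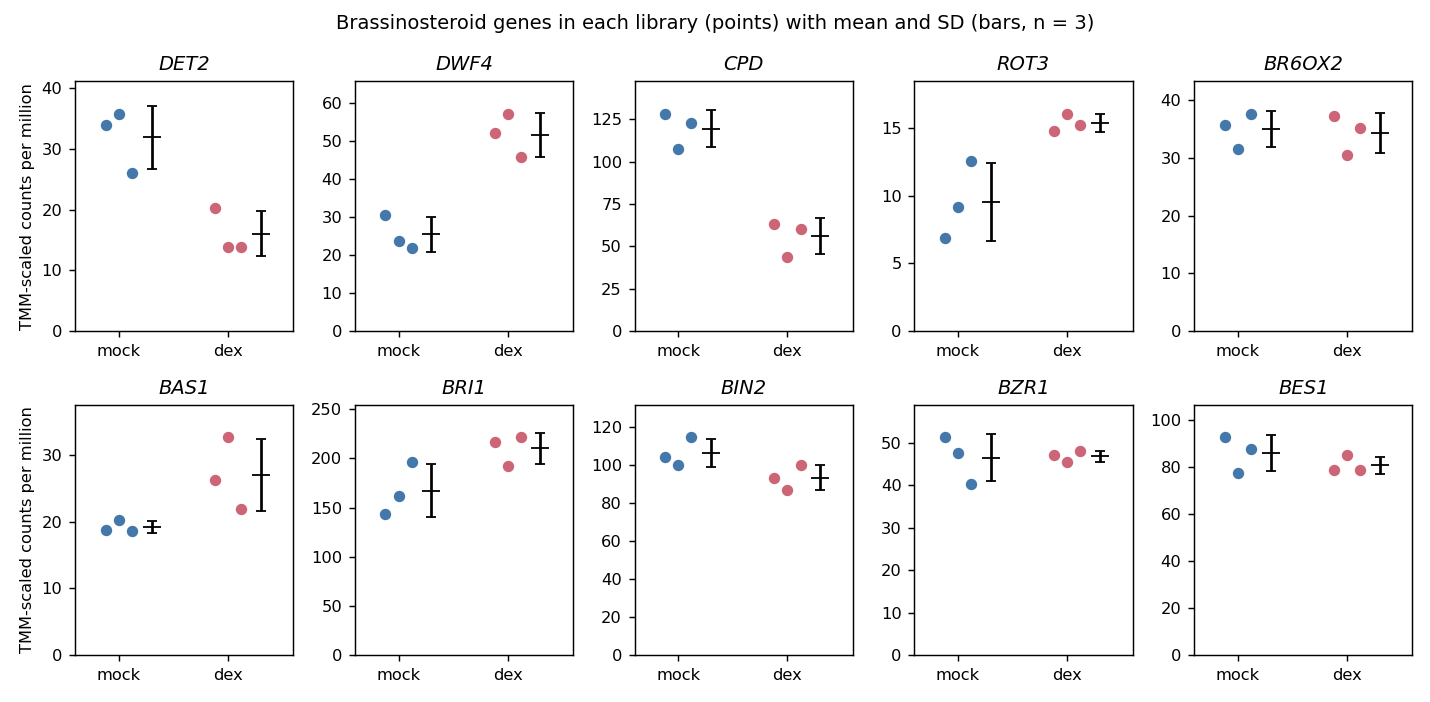
TMM-scaled CPM (y axes, each from 0) of the 10 genes in the 3 mock and 3 dexamethasone (dex) libraries, as points, with the mean and SD beside them. DWF4 is higher and CPD and DET2 are lower in all dexamethasone libraries, and the points of BR6OX2, BRI1, BIN2, BZR1 and BES1 overlap between the groups.

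DWF4, a cytochrome P450 that hydroxylates the sterol side chain in the rate-limiting step of the pathway, had 30.7, 23.8 and 21.9 CPM in CT1, CT2 and CT3 and 52.1, 57.3 and 45.7 CPM in Dx4, Dx5 and Dx6. Every dexamethasone library stood above every mock library. The log2 fold change was 1.04 ± 0.17 (SE; n = 3 libraries per group; edgeR adjusted p = 0.000315). It stayed between 0.94 and 1.17 when any 1 library was left out, with edgeR adjusted p of 5.97e-05 to 0.0065.

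CPD, a P450 that oxidises the steroid ring and, like DWF4, a known target of repression by BZR1, went the other way. It had 128, 107 and 123 CPM in the mock libraries and 63.6, 43.9 and 60.5 CPM with dexamethasone. The lowest mock library stood above the highest dexamethasone library. The log2 fold change was -1.09 ± 0.15 (edgeR adjusted p = 5.57e-05), and -0.94 to -1.19 without 1 library in turn (edgeR adjusted p = 8.53e-08 to 0.00204). CPD had the smallest p of the 10 genes.

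DET2, the steroid reductase that acts early in the pathway, had 33.8, 35.8 and 26 CPM in mock and 20.3, 13.9 and 13.8 CPM with dexamethasone. The groups did not overlap, and CT3 was the lowest mock library and Dx4 the highest dexamethasone library. Its log2 fold change was -0.99 ± 0.21 (edgeR adjusted p = 0.00294), and edgeR adjusted p reached 0.0331 without CT2. With the mean log2 CPM of the 8 dawn-phased genes as a covariate the call of DET2 was lost (log2 fold change -0.72 ± 0.27, edgeR adjusted p = 0.0735). In that fit DWF4 (1.38 ± 0.23) and CPD (-1.09 ± 0.16) were still called. The covariate was 3.55, 2.95 and 2.08 in CT1, CT2 and CT3. It was 2.05, 2.04 and 1.72 in Dx4, Dx5 and Dx6, so it also followed the groups. Only 3 of its 8 genes passed the filter on low counts. CDF1 had 0 to 2 counts per library, PRR9 0 to 9 and CCA1 1 to 14, against 33 to 103 for LNK1 and 40 to 111 for LNK2. The covariate thus carries counting error wherever it is used below.

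ROT3, a side-chain hydroxylase that works alongside its relative CYP90D1, was the least abundant of the 10 genes, with 11, 20 and 27 counts in mock and 27, 30 and 32 with dexamethasone. That is 6.89, 9.17 and 12.6 CPM against 14.8, 16.1 and 15.2 CPM. The groups did not overlap, but the counting interval of CT3 alone (8.27 to 18.3 CPM, 95%, exact Poisson) covered all the dexamethasone values. Its log2 fold change of 0.66 ± 0.26 did not pass (edgeR adjusted p = 0.111, 95% interval 0.10 to 1.21). Without CT3 it was 0.90 and passed (edgeR adjusted p = 0.0233). The 3 mock values ran opposite to the dawn-gene sum, and with that covariate the log2 fold change was 0.23 ± 0.35.

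BR6OX2, the P450 that completes brassinolide, the most active brassinosteroid, had 35.7, 31.6 and 37.7 CPM in mock and 37.3, 30.5 and 35.2 CPM with dexamethasone. The values overlapped fully. Its log2 fold change was -0.03, with a 95% interval of -0.36 to 0.31 (edgeR adjusted p = 0.95), so changes as large as those of DWF4, CPD or DET2 lay outside the interval.

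Ratios of raw counts within a library need no scaling between libraries, and they are given as a description. They use the same counts as the tests above, so they are no separate support for the calls. There were 0.239, 0.222 and 0.178 DWF4 counts per CPD count in CT1, CT2 and CT3, and 0.819, 1.3 and 0.756 in Dx4, Dx5 and Dx6. Dx5 was highest, with the most DWF4 and the least CPD of its group. Relative to BR6OX2, CPD went from 3.26 to 3.6 counts per count in mock to 1.44 to 1.72 with dexamethasone, and DWF4 from 0.58 to 0.86 to 1.3 to 1.88. The 5 synthesis genes together summed to 236, 208 and 221 CPM in mock and 188, 162 and 171 CPM with dexamethasone. CPD held 53.9% of these summed counts in mock and 32.4% with dexamethasone, and DWF4 11.3% and 29.7%, with no correction for transcript length.

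**Figure D2:**
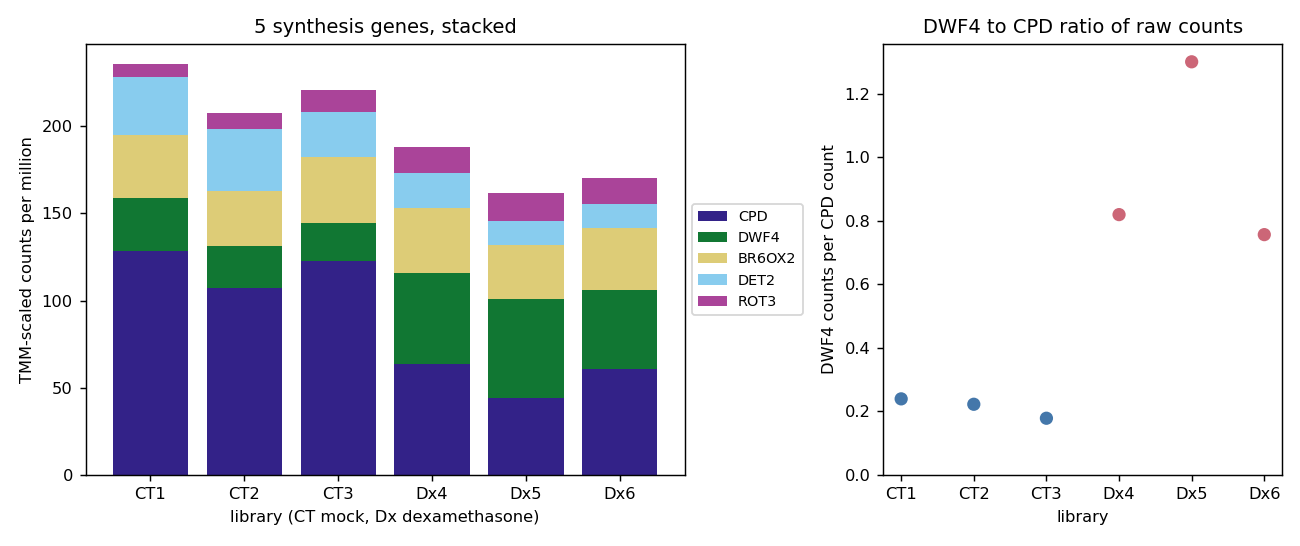
Left, TMM-scaled CPM of the 5 synthesis genes stacked for each library, with no correction for length. Right, raw DWF4 counts per CPD count in each library (blue mock, red dexamethasone), between 0.178 and 0.239 in mock and between 0.756 and 1.3 with dexamethasone.

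The inactivating enzyme and the signalling genes gave no call. BAS1, a P450 that inactivates the hormone, had 18.8, 20.2 and 18.6 CPM in mock and 26.3, 32.6 and 21.9 CPM with dexamethasone. Each dexamethasone library lay above the mock libraries, with Dx5 highest. The log2 fold change was 0.48 ± 0.20 (95% interval 0.06 to 0.90, edgeR adjusted p = 0.123), and 0.32 without Dx5.

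BRI1, the receptor kinase, had 143, 162 and 196 CPM in mock and 216, 193 and 222 CPM with dexamethasone. The groups overlapped by 1 pair, since CT3 stood slightly above Dx5. The log2 fold change was 0.33 ± 0.13 (95% interval 0.05 to 0.61, edgeR adjusted p = 0.116). Without CT3 it was 0.46 and passed (edgeR adjusted p = 0.000848). As for ROT3, the mock values ran opposite to the dawn-gene sum, and with that covariate the log2 fold change was 0.05 ± 0.13 (edgeR adjusted p = 0.853).

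BIN2, the kinase that holds the pathway off, had 104, 99.9 and 114 CPM in mock and 93.2, 86.7 and 100 CPM with dexamethasone. The values overlapped, since Dx6 stood just above CT2. Its log2 fold change was -0.18 ± 0.13 (95% interval -0.45 to 0.08, edgeR adjusted p = 0.394). Within each library there were 1.38, 1.62 and 1.72 BRI1 counts per BIN2 count in CT1, CT2 and CT3, and 2.21 to 2.32 with dexamethasone. This ratio was not tested, and neither gene was called. The mock ratios, like the mock values of BRI1, ran opposite to the dawn-gene sum.

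BZR1 and BES1, closely related transcription factors at the end of the pathway, had the log2 fold changes nearest to 0 of the 4 signalling genes. BZR1 had 51.4, 47.7 and 40.5 CPM in mock and 47.1, 45.5 and 48.1 CPM with dexamethasone. BES1 had 92.7, 77.5 and 87.9 CPM in mock and 78.9, 85.1 and 78.6 CPM with dexamethasone. In both, the dexamethasone values lay within the mock range. Their log2 fold changes were 0.02 (95% interval -0.29 to 0.33) and -0.09 (-0.36 to 0.19), with edgeR adjusted p of 0.954 and 0.741. The sign of the BZR1 value changed without CT3 (-0.07) and without Dx6 (-0.0027). There were 1.62 to 2.17 BES1 counts per BZR1 count in mock and 1.63 to 1.87 with dexamethasone. These transcripts say nothing of the phosphorylation through which BIN2 acts on both proteins.

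BZR1 and BES1 shared the most sequence with other genes of the 10, with 21.1% and 33.8% of their exon words of 50 bases in exons of other genes. For both, the main partner, the gene with the most matches, lay on the opposite strand. The main partner of BZR1, AT1G75090, had 35 to 78 counts per library, and that of BES1, AT1G19360, 77 to 128, neither of them called. Whether counting used strand is not stated. For BIN2 the share was 5.13% and for ROT3 1.70%, with main partners at 0 counts in all libraries, and for the other 6 genes it was 0.

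Per kilobase of the longest transcript, CPD had the highest mock level of the 10, at 61.9 ± 5.67 CPM per kb (SD, n = 3), and ROT3 the lowest, at 4.08 ± 1.22. BIN2 followed CPD at 54.3 ± 3.82, then BES1, BRI1, DET2, BZR1, BR6OX2 (18.3 ± 1.61), DWF4 (8.95 ± 1.63) and BAS1. Neighbours whose libraries overlapped in mock were CPD and BIN2, BES1 and BRI1, DET2 and BZR1, and DWF4 and BAS1. With dexamethasone BRI1 (48 ± 3.52) and BIN2 (47.7 ± 3.41) led and overlapped each other, followed by BES1 and then CPD, at 29 ± 5.49, which overlapped BZR1. DWF4 (18.2 ± 2.03), BR6OX2 (18 ± 1.81) and DET2 (14.5 ± 3.36) then formed a run of overlapping neighbours that went on to BAS1 (12.2 ± 2.44), and ROT3 was again lowest (6.58 ± 0.273). CPD thus exceeded DWF4 by a wide margin in mock and by less with dexamethasone, on this length-corrected scale. On the union of its exons the mock level of BIN2 was 39.8 CPM per kb, still second to CPD, while BRI1 (38.2) came before BES1 (35.3).

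**Figure D3:**
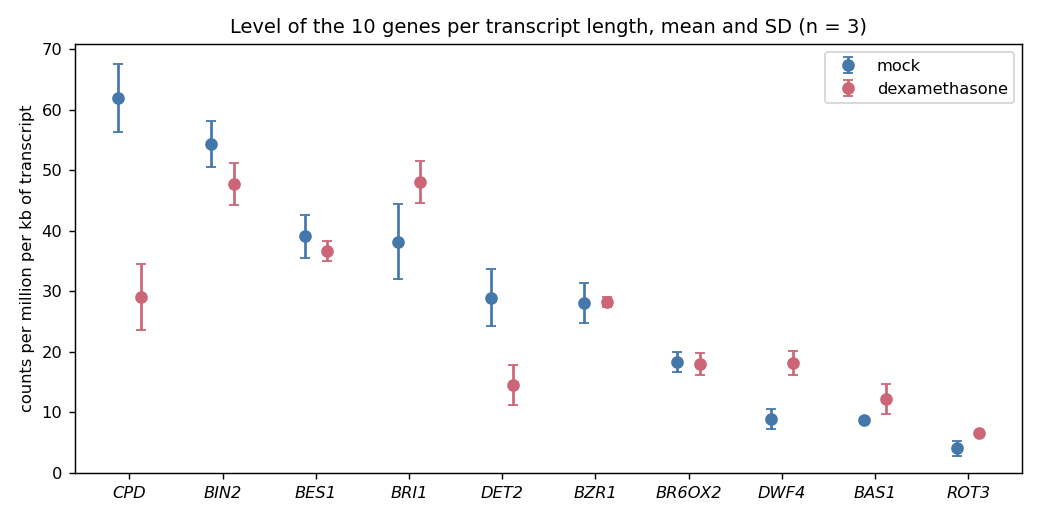
Mean level of each gene per kilobase of its longest transcript (y axis, CPM per kb) in mock and dexamethasone libraries, with SD (n = 3), ordered by the mock level. CPD goes from 61.9 to 29 and DWF4 from 8.95 to 18.2, next to the level of BR6OX2.

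A wider list of 64 other brassinosteroid genes was read in the same fit. Of its 45 members that passed the filter on low counts, 3 were called higher (6.67%) and 5 lower (11.1%), against 5.86% and 8.02% of all genes, so the list as a whole stood near the background. Its median log2 fold change was -0.01. The members called are named here by role. With the DESeq2 Wald test 3 of these 8 were still called, BSK1, BIM1 and IAA19.

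**Figure D4:**
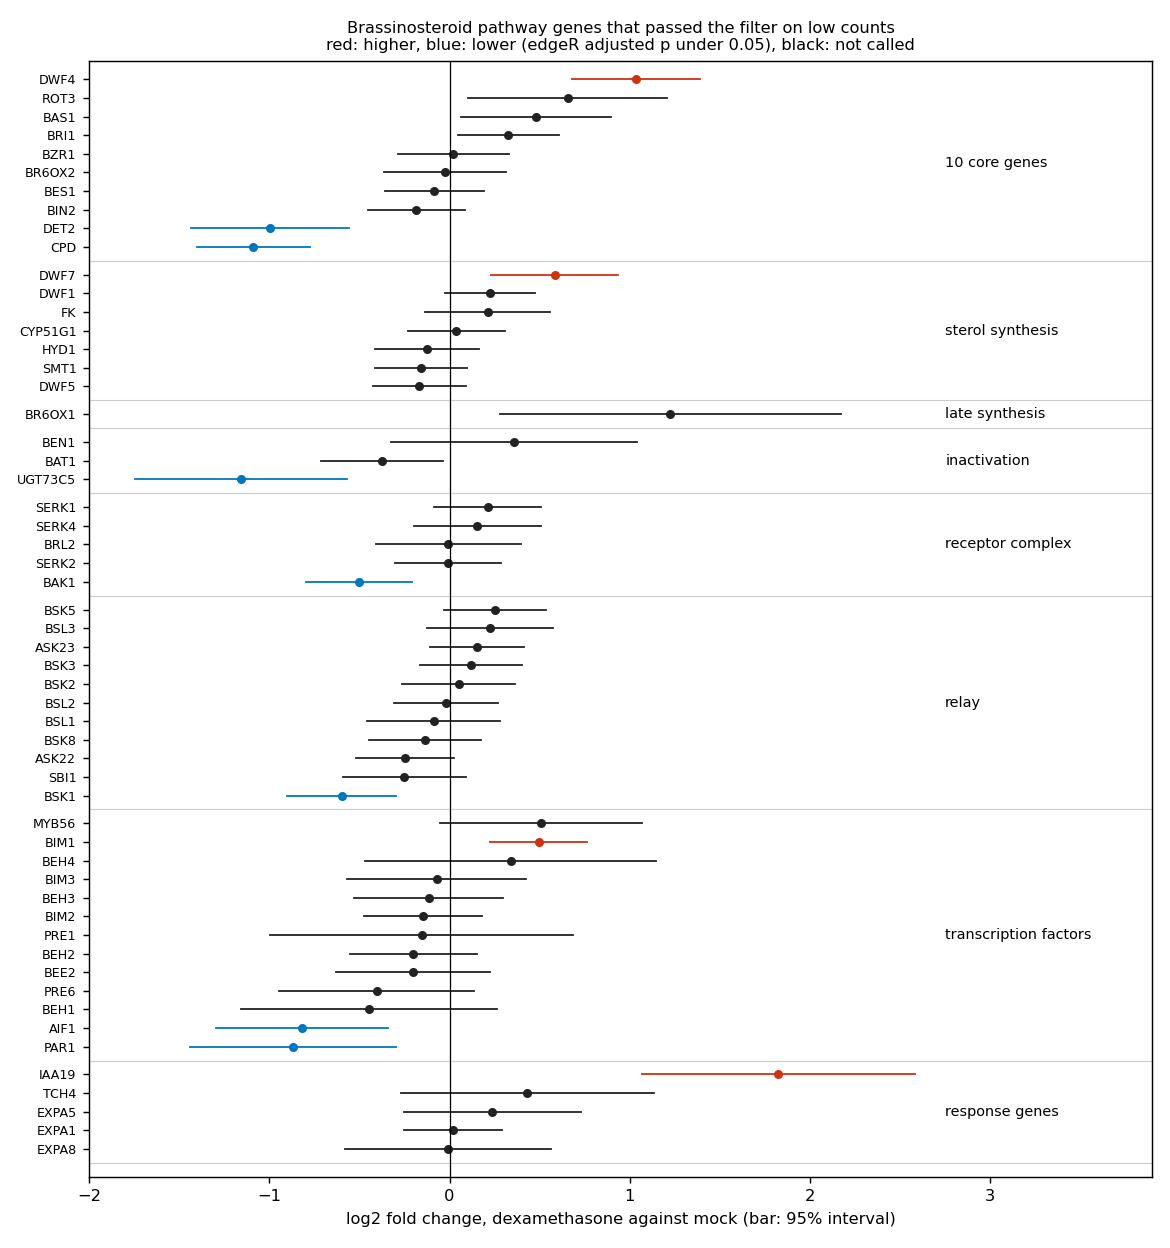
Log2 fold change of dexamethasone against mock (x axis) for the 10 core genes and for the other pathway genes that passed the filter, by role, with 95% intervals as bars. DWF4 and IAA19 lie farthest to the right of the genes called higher, and UGT73C5, CPD and DET2 farthest to the left of those called lower.

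In sterol synthesis, which supplies the pathway, 1 of 7 genes was called. DWF7, a sterol desaturase, had 36.3, 25.2 and 26.5 CPM in mock and 43.3, 45.5 and 41.4 CPM with dexamethasone. It rose in mean from 29.3 ± 6.08 CPM (SD, n = 3) to 43.4 ± 2.02 CPM, with no overlap (log2 fold change 0.58 ± 0.17, edgeR adjusted p = 0.0248), a call lost without any 1 of CT2, Dx4, Dx5 and Dx6 (adjusted p up to 0.14). Of the late steps, BR6OX1, the close relative of BR6OX2, had 4.38, 2.29 and 1.4 CPM in mock and 6.03, 5.89 and 6.19 CPM with dexamethasone. Its counts were 7, 5 and 3 in mock and 11, 11 and 13 with dexamethasone. It thus passed the filter on low counts only through the dexamethasone libraries, where it was high. The groups did not overlap, and the log2 fold change of 1.23 ± 0.45 was not called (edgeR adjusted p = 0.0792). Leaving out CT1 gave a call (1.67, edgeR adjusted p = 0.0404), and leaving out any other library did not (edgeR adjusted p up to 0.233). With the dawn-gene covariate BR6OX1 was called too, at a log2 fold change of 2.15 ± 0.735 (edgeR adjusted p = 0.0448). CYP90D1, the relative of ROT3, was too low for the test, with 3 counts in mock and 24 with dexamethasone, each summed over the group. The ratio of the groups was 8.19 (95% counting interval 2.49 to 42.5, exact binomial), and the gene is named because of these values. With no filter beyond 1 count it was called higher (log2 fold change 2.88, edgeR adjusted p = 0.00337).

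Among the enzymes of inactivation 1 of 3 tested genes was called. UGT73C5, which attaches a sugar to brassinosteroids, had 14.4, 14.7 and 18.1 CPM in mock and 6.58, 5.35 and 9.05 CPM with dexamethasone. Every dexamethasone library stood below every mock library. The log2 fold change was -1.16 ± 0.28 (edgeR adjusted p = 0.00825), and the call was lost without Dx5 (edgeR adjusted p = 0.0613). Of its exon words 6.76% also lie in other genes, with UGT73C6 the main one, so some of its reads could have been split or dropped.

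Near the receptor, BAK1, the co-receptor of BRI1, had 66.4, 57.8 and 61.9 CPM in mock and 43.3, 40.1 and 47.2 CPM with dexamethasone. The groups did not overlap. BAK1 fell, with a log2 fold change of -0.50 ± 0.14 (edgeR adjusted p = 0.0217), and was the only one of 5 tested genes of the receptor complex with a call, which was lost without Dx4, Dx5 or Dx6 (adjusted p up to 0.129). With the dawn-gene covariate BAK1 was not called either (edgeR adjusted p = 0.0755), at a log2 fold change of -0.48 ± 0.18, close to that without it. Its relatives SERK1, SERK2 and SERK4, which can also serve as co-receptors, were not called, with log2 fold changes of 0.21, -0.01 and 0.15. BSK1, a kinase-like protein that passes the signal on from BRI1, had 97.1, 80.7 and 80.5 CPM in mock and 50.4, 52.4 and 66.2 CPM with dexamethasone. BSK1 fell, again with no overlap, with a log2 fold change of -0.60 ± 0.15 (edgeR adjusted p = 0.00832), a call lost without Dx4 or Dx5. It was the only call among 11 tested relay genes.

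Of 13 tested transcription factors 1 was called higher and 2 lower. BIM1, a helix-loop-helix partner of BES1, had 122, 129 and 134 CPM in mock and 164, 205 and 174 CPM with dexamethasone (log2 fold change 0.49 ± 0.13, edgeR adjusted p = 0.0128). The groups did not overlap. AIF1 and PAR1, atypical helix-loop-helix proteins that hold back growth, fell from 22.9 ± 3.08 to 13 ± 2.95 CPM and from 18.7 ± 5.64 to 10.3 ± 2.11 CPM. Their log2 fold changes were -0.82 ± 0.23 and -0.87 ± 0.27 (edgeR adjusted p = 0.0202 and 0.0388). The calls of BIM1 and AIF1 were each lost without CT2, Dx5 or Dx6 and that of PAR1 without any library but CT3, with adjusted p up to 0.132, 0.119 and 0.253. With the dawn-gene covariate neither AIF1 (log2 fold change -0.66, edgeR adjusted p = 0.169) nor PAR1 (-0.45, edgeR adjusted p = 0.475) was called. DWF7, UGT73C5, BSK1 and BIM1 were still called in that fit (edgeR adjusted p = 0.00772, 0.00587, 0.0492 and 0.0319).

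Of 5 tested genes known to respond to brassinosteroids, IAA19, an auxin response repressor induced by auxin and by brassinosteroids, was called higher. It had 1.88, 3.67 and 6.05 CPM in mock and 12.1, 11.8 and 19.1 CPM with dexamethasone. The groups did not overlap, and the difference was 1.83 ± 0.36 on the log2 scale (edgeR adjusted p = 0.00186). Its mock libraries held only 3, 8 and 13 counts. IAA19 thus passed the filter on low counts only through the dexamethasone libraries, where it was high. With the dawn-gene covariate its log2 fold change was 0.91 ± 0.45 and not called (edgeR adjusted p = 0.197). The other 4, the wall-modifying genes TCH4, EXPA1, EXPA5 and EXPA8, were not called, with log2 fold changes of -0.01 to 0.43.

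A further 19 genes of the list did not pass the filter on low counts, and 7 of them (UGT73C6, CDG1, AT4G12810, BEE3, HBI1, PRE3 and SAUR15) were listed at 0 in all libraries. For UGT73C6 the 0 sets no limit, because 100% of its exon words lie in other genes, with AT2G36792 on the opposite strand the main one. Whether reads of the other 6 loci could be counted is not known, since the annotation behind the counts is not given. The stem cell marker CLV3 was listed at 0 too. If they could be counted, a 0 allows up to 1.38 to 1.88 CPM in a library, where the limit of 3 counts covers counting error only. The receptor gene BRL1, a relative of BRI1 named because of its values, had 17 counts in mock and 5 with dexamethasone (ratio 0.301, counting interval 0.0868 to 0.85).

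**Figure D5:**
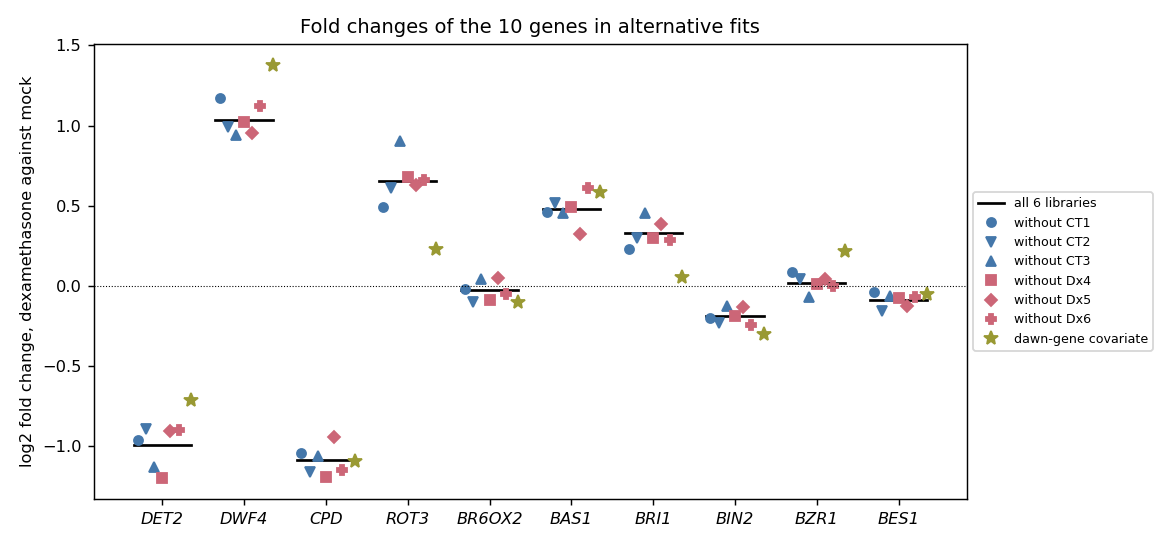
Log2 fold change of the 10 genes (y axis) with all 6 libraries (black lines), without each library in turn (symbols, blue where a mock library and red where a dexamethasone library was left out) and with the dawn-gene covariate (stars). DWF4, CPD and DET2 keep their direction in all of these fits, while ROT3 spans 0.23 to 0.90 and BRI1 0.05 to 0.46.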

How the data were processed

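Per the labels' protocols, RNA was purified on columns and stranded poly(A) libraries were made. The deposited table holds raw counts of reads per locus, and the name of the authors' table points to HTSeq. Per the submitters' processing notes, TopHat, Bowtie, RSEM and Cufflinks were used, with neither version nor role. For the build, annotation, strand setting and read filters, the sources used here give nothing. The table has 28775 loci and 3 blank lines. CT columns were read as mock and Dx columns as dexamethasone. The Dx numbers match no title, so no column was tied to a given sample. Nothing says that samples are separate plants or pools, so p-values measure the spread between these libraries, which may be technical. By chi-square over the number of genes, from 1.27 to 8.02, no pair of libraries agreed within sampling noise. This is a description, without a p-value.

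Counts were tested with edgeR 4.0.16 (R 4.3.3): TMM scaling, filterByExpr by group (minimum count 10), robust glmQLFit and glmQLFTest, two-sided, dexamethasone against mock, Benjamini-Hochberg over all tested genes, threshold 0.05. SE is the log2 fold change over the root of F, and 95% intervals use the t distribution with the fit's degrees of freedom. CPM were computed on TMM-scaled library sizes. The procedure was also run on simulated data, of which no outcome is given here. Names, transcript lengths, shared exon words of 50 bases and promoter windows came from RefSeq for TAIR10.1, which has a row for 28009 of the loci. Limits of 3 counts and counting intervals cover counting error only.

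The 10 genes, the list of 64 and the marker lists were chosen with earlier results of these data known. Named are all 10 genes, AP2, the called genes of the wider list (up to the 4 smallest p-values per role), and the gene of smallest p in a role with none. Other names were added after their values were seen. Alternatives tried were scaling by the size factors of DESeq2 1.42.0 or by library size alone, a filter of 1 count in total or of 5 CPM in 3 libraries, DESeq2's Wald test, voom (limma 3.58.1), the mean log2 CPM (prior count 2) of 8 dawn-phased genes as a covariate, a threshold of 0.1, and leaving out each library. Levels per kb were also computed on the exon union and with library size scaling.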

Additional observations from a re-analysis of the deposited data

How the results depend on the processing

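The calls of DWF4 and CPD held in every alternative run, and that of DET2 in all but the dawn-gene covariate, which left 1 of the 10 genes called lower. Leaving out 1 library gave 1 to 3 of the 10 genes higher (3, with ROT3 and BRI1, without CT3) and 2 lower. For the wider list these fits gave 1 to 5 genes higher and 0 to 6 lower. No gene of that list was called lower without Dx5, where IAA19 was the only one called higher. The list's count of lower genes was 1 with the DESeq2 Wald test and 2 with the dawn-gene covariate. Over all genes the DESeq2 Wald test called 506 higher and 772 lower, against 929 and 1272, and leaving out 1 library gave 441 to 1816 higher and 668 to 1974 lower, the fewest without Dx6 and Dx5 and the most without CT3. The cause of these differences was not tested. Without 1 library the log2 fold changes nearest to 0 changed sign, that of BR6OX2 between -0.0995 and 0.0521 (positive without CT3, 0.0398, and without Dx5) and that of BZR1 between -0.0705 and 0.0848 (negative without CT3 and without Dx6, -0.0027). On the length of the exon union the mock level of BIN2 was 39.8 rather than 54.3 CPM per kb, and 35 rather than 47.7 with dexamethasone, with smaller moves for BZR1 (24.2 and 24.4) and BES1 (35.3 and 33.2). No paired analysis was possible because the dexamethasone columns carry numbers that match no title. ROT3, BR6OX1 and CYP90D1 had at most 32 counts in a library, so their values carry wide counting error.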
